A study of Homo sapiens with 4 samples.

Results

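The E2F transcription factors and the pocket proteins form the switch that decides whether a cell enters S phase, and their transcripts were followed here between the core and the invasion zone of melanoma spheroids. The members were the 10 rows of the deposited count table named E2F1 to E2F8, RB1 and RBL1, out of 56304 genes. Each name matched 1 row, and 10 of 10 passed the filter on low counts. The samples were MV3 cells, an established and highly metastatic human melanoma line, all expressing histone H2B fused to GFP. Spheroids of 50000 cells were grown in collagen I for 2 days without further treatment, a 1 mm punch removed the core, a 3 mm punch then removed the invasion zone around it, and bulk RNA was sequenced from 2 libraries per zone, numbered 1 and 2. Both zones therefore come from the same line, and because the punch cuts vertically, invading cells above and below the core can remain in the core sample.

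E2F proteins bind DNA and switch genes for DNA replication on or off. E2F1, E2F2 and E2F3 are known as activators, E2F4, E2F5 and E2F6 as repressors, and E2F7 and E2F8 as atypical repressors that bind DNA without a DP partner. The pocket proteins encoded by RB1, RBL1 and RBL2 bind E2Fs and silence them in resting cells, until cyclin-dependent kinases phosphorylate the pocket protein and release the E2F. Several E2F genes carry E2F sites in their own promoters, so that the activators, the atypical E2Fs and RBL1 are themselves classed as E2F target genes.

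Because this self-control is written in the promoters, the members' promoters were searched for the E2F word first. RefSeq windows from 250 bases before to 50 bases after the transcript start (GRCh38.p14) were used for 7 of the 10 members. E2F5 and E2F8 were not examined, and the RB1 window lies 172706 bases inside the gene as GENCODE draws it and was left out. The words searched on both strands were TTTCCCGC, TTTCGCGC, TTTGCCGC and TTTGGCGC, and in a looser search the same words without their first T, so that each 8-base match also contains a 7-base match. Of 35116 promoter windows in the table, 3.31% held an 8-base word and 13.0% a 7-base word. The sequences below end at the base before the transcript start, read 5′ to 3′ in the direction of the gene, with the E2F words in capitals. They are shown because the members with an 8-base word can be set against one without any, E2F4.
E2F1, chr20:33686386-33686505, minus strand: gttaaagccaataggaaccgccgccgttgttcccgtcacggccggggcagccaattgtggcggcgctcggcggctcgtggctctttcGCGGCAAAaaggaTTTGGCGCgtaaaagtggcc
E2F2, chr1:23531234-23531353, minus strand: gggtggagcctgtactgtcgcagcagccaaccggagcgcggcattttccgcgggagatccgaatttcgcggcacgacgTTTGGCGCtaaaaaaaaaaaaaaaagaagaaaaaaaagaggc
E2F3 (first start), chr6:20401759-20401878, plus strand: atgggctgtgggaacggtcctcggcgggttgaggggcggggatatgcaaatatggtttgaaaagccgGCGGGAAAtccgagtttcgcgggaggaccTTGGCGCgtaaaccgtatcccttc
RBL1, chr20:37095998-37096117, minus strand: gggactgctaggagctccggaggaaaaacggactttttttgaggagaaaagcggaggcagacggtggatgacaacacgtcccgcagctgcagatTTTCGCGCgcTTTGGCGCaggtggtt
E2F7, chr12:77065570-77065749, minus strand: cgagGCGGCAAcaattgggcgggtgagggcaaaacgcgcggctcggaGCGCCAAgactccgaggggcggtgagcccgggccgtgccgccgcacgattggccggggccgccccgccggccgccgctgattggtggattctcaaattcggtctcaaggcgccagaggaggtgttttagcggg
E2F4, chr16:67192035-67192154, plus strand: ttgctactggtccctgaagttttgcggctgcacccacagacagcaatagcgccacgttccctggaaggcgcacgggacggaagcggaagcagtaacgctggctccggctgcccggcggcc

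E2F1 and RBL1 each held 2 words of 8 bases, and E2F2 and the first start of E2F3 held 1 each. All 6 of these words lay within 53 bases before the start. E2F7 held 2 words of 7 bases further upstream, and E2F6 held 1 at 14 to 20 bases after it. E2F4 and the second start of E2F3, which lies 1735 bases downstream of the first, held neither form. A match is a description of letters, not of binding, and the absence of a match says only that these letters are not in the window.

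**Figure D1:**
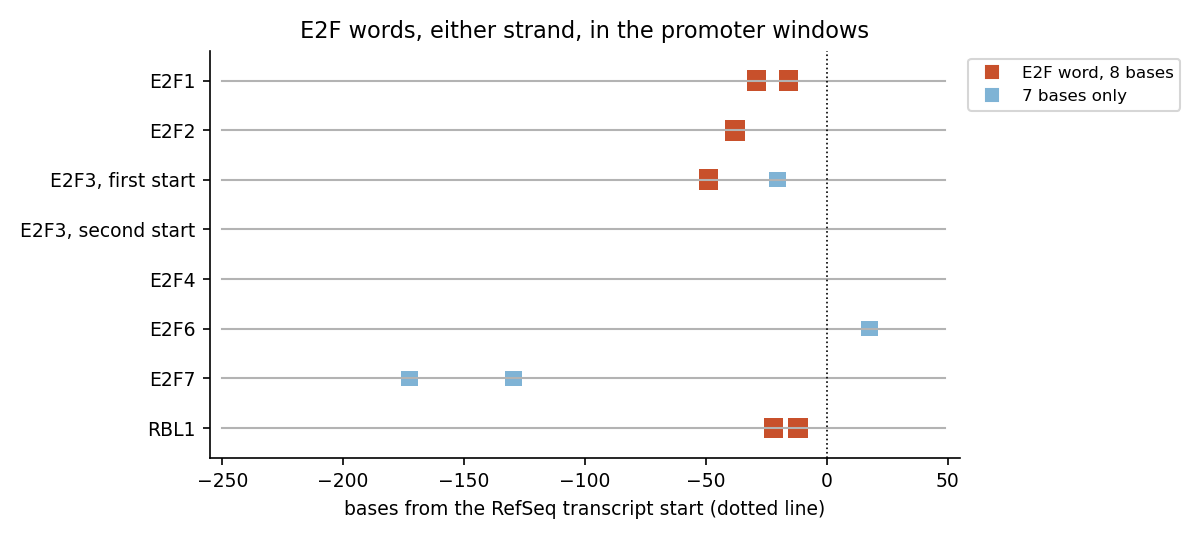
Position of E2F words, on either strand, in the promoter windows of 7 members (E2F3 with 2 starts), in bases from the RefSeq transcript start on the x axis. Orange boxes are words of 8 bases and blue boxes words of 7 bases only. The 8-base words of E2F1, E2F2, E2F3 and RBL1 sit within 53 bases before the start, and E2F4 has none.

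The libraries of replicate 1 held 36363358 and 37591782 counts and those of replicate 2 held 14983135 and 11789243 counts, in the order core and invasion zone. Levels are given as CPM, the usual depth-scaled count, after TMM scaling with factors between 0.986 and 1.009. The zones were compared by edgeR's quasi-likelihood test over the 15529 genes that passed the filter, with Benjamini-Hochberg adjustment, and a call needed both an adjusted p under 0.05 and a 2-fold difference. This test called 0 of the 15529 genes (0%) and 0 of the 10 members, with 0.128 as the smallest adjusted p. On unadjusted p alone (under 0.05, no fold minimum) 6 of the 10 members were higher in the invasion zone, against 11.9% of all genes. DESeq2 without a replicate term called E2F1 of the members and 902 genes in all, and limma voom called 0 and 0. The numbers 1 and 2 were taken as pairing the libraries of a replicate, and a second edgeR fit that adds this number as a block stands next to each result it changed. With the block, 8 of the 10 members had an adjusted p under 0.05 and were higher in the invasion zone, against 19.4% of all genes. With the 2-fold minimum as well, 3 of 10 were called higher and 0 lower, against 3.41% and 7.06% of all genes. In bulk RNA, fewer cells that express a gene and less RNA per cell cannot be told apart, nor can a change in the share of dividing cells.

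The mean of every member was higher in the invasion zone. For 8 of the 10 members the lower invasion zone library was above the higher core library, against 28.1% of all genes, and the exceptions were E2F5 and E2F6. The reverse order was seen for 0 members, against 30.3% of all genes. The members' median log2 fold change, invasion zone over core, was 0.81, beside -0.01 for all genes tested. E2F1, E2F2, E2F8 and E2F7 had the largest log2 fold changes, RBL1 and E2F3 followed, and E2F4, RB1, E2F6 and E2F5 had the smallest.

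**Figure D2:**
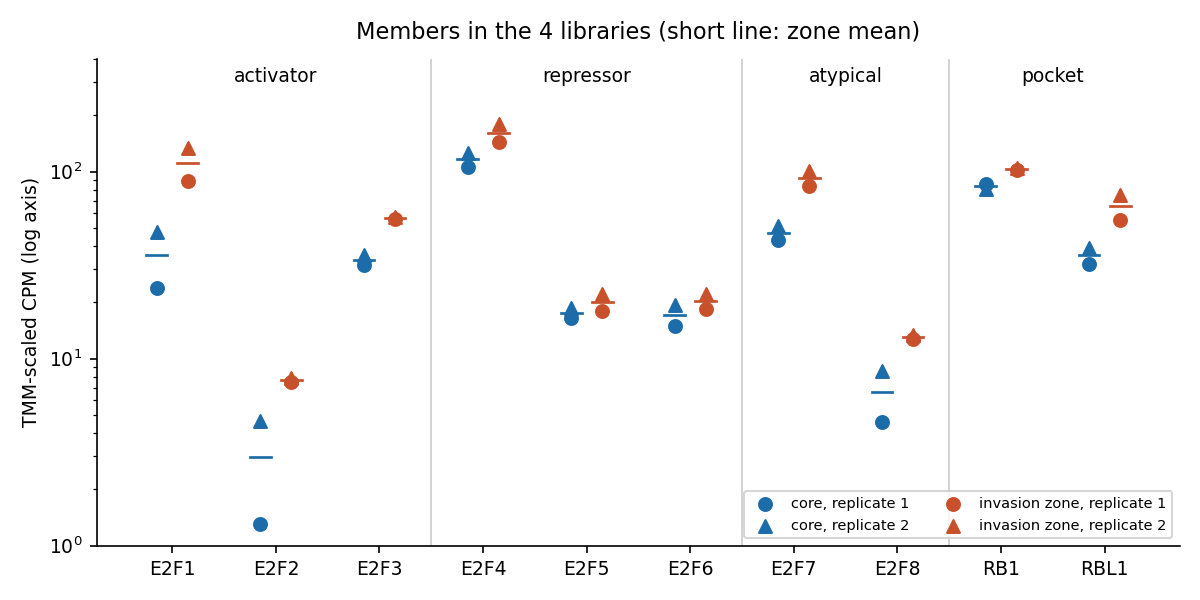
TMM-scaled CPM (log axis) of the 10 members in each of the 4 libraries, grouped by class. Blue points are core and orange points invasion zone, circles are replicate 1 and triangles replicate 2, and short lines are zone means. The 2 zones overlap for E2F5 and E2F6 and are separate for the other 8 members.

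Among the activators, E2F1 (ENSG00000101412, chromosome 20 of GRCh38, 33675477 to 33686385) drives genes of DNA synthesis and can also trigger cell death. E2F1 had 23.8 and 47.7 CPM in the core and 88.9 and 135 CPM in the invasion zone (replicates 1 and 2). Its lowest invasion zone level was thus well above its highest core level, although the core libraries differed from each other more than those of most members. The mean went from 35.7 ± 16.9 CPM (SD, n = 2) to 112 ± 32.3 CPM, a log2 fold change of 1.65 with a standard error of 0.39 (edgeR adjusted p = 0.133). With the replicate block the log2 fold change was 1.70 with a standard error of 0.12 (edgeR adjusted p = 5.6e-05), and E2F1 rose by this test and by DESeq2 without a block (adjusted p = 0.000568). The log2 fold change was 1.24 without core replicate 1 and 2.24 without core replicate 2. E2F1 is one of the genes the study itself singled out on these libraries, so its direction is not independent evidence.

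E2F2 (ENSG00000007968, chromosome 1, 23506438 to 23531233) is an activator with functions close to those of E2F1 and was the scarcest member. Its raw counts were 47 and 70 in the core and 283 and 94 in the invasion zone, which is 1.31 and 4.64 CPM against 7.54 and 7.90 CPM. The invasion zone libraries were nearly equal, and the gap between the core libraries made up most of the spread. The log2 fold change was 1.43 with a standard error of 0.60 (edgeR adjusted p = 0.219), and 1.66 with a standard error of 0.38 in the block test, where it was called higher (edgeR adjusted p = 0.00889). Without core replicate 1 the log2 fold change was 0.74, and without core replicate 2 it was 2.56.

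E2F3 (ENSG00000112242, chromosome 6, 20401879 to 20493714) encodes the E2F3a and E2F3b proteins from separate starts, which a count per gene does not separate. E2F3 had 31.6 and 36.0 CPM in the core and 56.0 and 57.5 CPM in the invasion zone. The zones were clearly apart and each pair of libraries was tight. The change was smaller than for E2F1, a log2 fold change of 0.75 with a standard error of 0.15 (edgeR adjusted p = 0.128, and 0.000589 with the block).

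The atypical E2F7 (ENSG00000165891, chromosome 12, 77021248 to 77065569) is known to hold E2F1 and other target genes down late in S phase. E2F7 had 43.1 and 50.9 CPM in the core and 84.2 and 100.3 CPM in the invasion zone. It was close to 2-fold higher in both replicates, with a log2 fold change of 0.97 and a standard error of 0.17 (edgeR adjusted p = 0.128). It passed the adjusted threshold with the block (edgeR adjusted p = 0.000126) but lay just under the 2-fold minimum. Its partner E2F8 (ENSG00000129173, chromosome 11, 19224063 to 19241620), which can pair with E2F7, had 4.60 and 8.61 CPM in the core and 12.8 and 13.4 CPM in the invasion zone. As for E2F2, the invasion zone libraries were nearly equal and the core libraries were not. The log2 fold change was 1.00 with a standard error of 0.34 (edgeR adjusted p = 0.169), and 1.08 with the block, where E2F8 was called higher (edgeR adjusted p = 0.00556). Without core replicate 1 it was 0.61, and without core replicate 2 it was 1.51.

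The repressors differed least. E2F4 (ENSG00000205250, chromosome 16, 67192155 to 67198918), the main E2F bound to pocket proteins in resting cells, had 107 and 126 CPM in the core and 144 and 179 CPM in the invasion zone. The zones did not overlap, and the log2 fold change was 0.47 with a standard error of 0.18 (edgeR adjusted p = 0.189, and 0.00169 with the block). E2F5 (ENSG00000133740, chromosome 8), a second repressor that works with RBL2, had 16.5 and 18.7 CPM in the core and 17.9 and 22.1 CPM in the invasion zone, so that the zones overlapped. Its log2 fold change was 0.18, with a 95% interval of the block test from -0.12 to 0.48 (edgeR adjusted p = 0.327). Genes on the opposite strand cover 1130 of the 5999 exonic bases of E2F5, and since the strand setting of the counting is not known, its counts are less certain. E2F6 (ENSG00000169016, chromosome 2, 11444375 to 11466177) represses through Polycomb proteins and binds no pocket protein. It had 14.9 and 19.5 CPM in the core and 18.4 and 22.1 CPM in the invasion zone, again with overlap. Its log2 fold change was 0.24, with an interval from -0.05 to 0.55 in the block test (edgeR adjusted p = 0.173). Without the block the upper ends of the intervals were 0.68 for E2F5 and 0.79 for E2F6, short of a 2-fold change. GENCODE lists 4 pseudogenes named after E2F6, 2 after E2F3 and 1 after E2F4, which can divert reads from these genes.

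Of the pocket proteins, RB1 (ENSG00000139687, chromosome 13, 48303744 to 48599436) encodes the retinoblastoma protein, which restrains the activator E2Fs. RB1 had 85.5 and 81.2 CPM in the core and 102 and 105 CPM in the invasion zone. Both zones were tight and separate, but the difference was small, with a log2 fold change of 0.31 and a standard error of 0.13 (edgeR adjusted p = 0.221). With the block the adjusted p was 0.0187 in edgeR, 0.0135 in limma voom and 0.059 in DESeq2, and no tool called RB1, whose difference is under 2-fold. RBL1 (ENSG00000080839, chromosome 20, 36996349 to 37095997) encodes p107, the pocket protein that accumulates in dividing cells. RBL1 had 32.0 and 39.3 CPM in the core and 55.5 and 74.8 CPM in the invasion zone. The lower invasion zone library was above the higher core library, and the log2 fold change was 0.87 with a standard error of 0.21 (edgeR adjusted p = 0.135, and 0.000286 with the block). Of its 5956 exonic bases, 213 overlap an opposite-strand gene.

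Within each replicate number, the invasion zone was above the core for every member. Except for E2F5 and E2F6, this already follows from the zones being separate. The size of the difference agreed better for some members than for others. For E2F7 the ratio of CPM was 1.95 in replicate 1 and 1.97 in replicate 2, and the exact 95% intervals, which cover counting error only, overlapped (1.84 to 2.08 and 1.80 to 2.16). For E2F1 it was 3.74 in replicate 1 (3.46 to 4.03) and 2.82 in replicate 2 (2.58 to 3.09). For E2F2 it was 5.75 (4.21 to 8.01) against 1.70 (1.24 to 2.36), and for E2F8 2.77 (2.32 to 3.33) against 1.55 (1.22 to 1.97). The intervals of the 2 replicates did not overlap for these last 3 members. The difference between replicates was not tested, because there is 1 library per zone and replicate. In the core, replicate 2 minus replicate 1 was 1.82 for E2F2, 1.00 for E2F1 and 0.90 for E2F8 on the log2 scale, whereas in the invasion zone it was 0.07, 0.60 and 0.07. Taken on log2 of CPM plus 0.5, the difference between the core libraries had a median of 0.74 over 30 known E2F target genes. All 30 of these were higher in replicate 2, and the median over all genes was 0.00. Between the invasion zone libraries the median on this scale was 0.30 over the target genes and -0.03 over all genes. Of the target genes, 25 of 30 were higher there in replicate 2. The members' values carry no such offset, which matters most for scarce genes such as E2F2. Of the members, 9 of 10 were higher in replicate 2 in the core and 10 of 10 in the invasion zone. Of all 15529 genes, 7773 were higher in replicate 2 in the core and 7333 in the invasion zone.

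**Figure D3:**
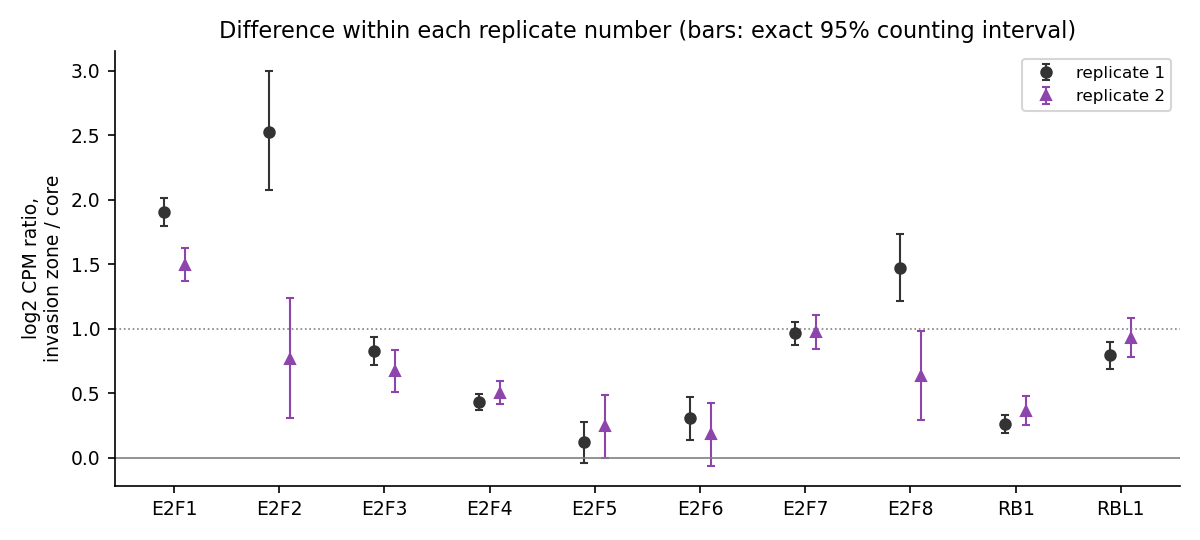
Log2 ratio of CPM, invasion zone over core, within replicate 1 (black circles) and replicate 2 (purple triangles) for each member, with exact 95% counting intervals as bars. Dotted line, 2-fold. The replicates lie apart for E2F1, E2F2 and E2F8 and together for E2F7, and no ratio is below 0.

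Levels between genes were compared per kilobase of exon. In the core E2F4 led with 32.4 ± 3.86 CPM per kilobase (SD, n = 2), followed by E2F1 with 13.3 ± 6.29 and RB1 with 13.0 ± 0.47. E2F7 had 7.48 ± 0.88, E2F3 6.51 ± 0.61, RBL1 5.98 ± 0.86, E2F6 4.22 ± 0.80, E2F5 2.93 ± 0.26, E2F8 1.60 ± 0.69 and E2F2 0.54 ± 0.43 CPM per kilobase. Of neighbours in this order, E2F1 and RB1, E2F7 and E2F3, and E2F3 and RBL1 had overlapping libraries. Read within each library, E2F7 was above E2F3 and E2F3 above RBL1 in both core libraries, while E2F1 was below RB1 in replicate 1 and above it in replicate 2. In the invasion zone E2F1 reached 41.5 ± 12.0 CPM per kilobase, whose range overlapped that of E2F4 at 44.9 ± 6.88. Below them came RB1 with 16.1 ± 0.25, E2F7 with 14.7 ± 1.81, RBL1 with 10.9 ± 2.29, E2F3 with 10.9 ± 0.20, E2F6 with 4.98 ± 0.65, E2F5 with 3.33 ± 0.50, E2F8 with 3.16 ± 0.10 and E2F2 with 1.41 ± 0.05 CPM per kilobase. There the pairs RB1 and E2F7, RBL1 and E2F3, and E2F5 and E2F8 overlapped as well. RB1 was above E2F7 in each invasion zone library, and the order within the other 3 overlapping pairs changed between the replicates. With the longest annotated transcript as length, RB1 had the higher core mean (17.5 against 13.3), still with overlap. On that length E2F4, at 55.1 and 68.4 CPM per kilobase in the invasion zone, was separate from E2F1 at 33.0 and 50.03, and RB1 was separate from E2F7.

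Summed over the E2F family, the activators made up 25.6% and 32.4% of the level per kilobase in the core and 41.4% and 44.5% outside it. The repressors made up 60.9% and 54.6% in the core and 43.5% and 41.9% in the invasion zone, and the atypical E2Fs between 12.9% and 15.1% in all 4 libraries. Among the activators E2F1 differed most per kilobase, and its counts per E2F4 count were 0.22 and 0.38 in the core and 0.62 and 0.75 in the invasion zone. With the longest transcript as length the activators made up 21.2% and 27.2% in the core and 35.7% and 38.6% in the invasion zone. The repressors then stayed ahead in the invasion zone, at 50.1% and 48.5%, whereas on exon length the activators passed them in replicate 2. These shares carry no test.

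**Figure D4:**
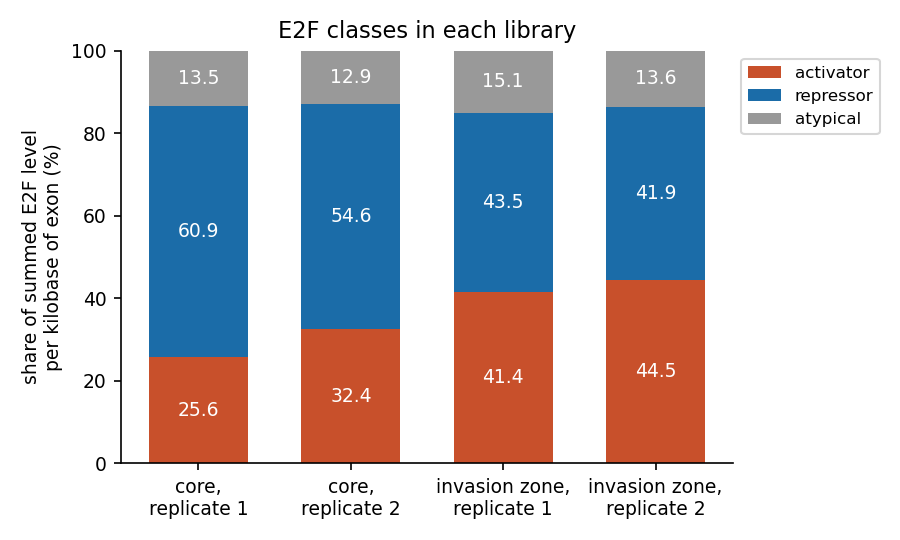
Share (%) of the summed E2F level, in CPM per kilobase of exon, taken by activator (orange), repressor (blue) and atypical (grey) E2Fs in each of the 4 libraries. Activators go from 25.6% and 32.4% in the core to 41.4% and 44.5% in the invasion zone on this length.

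E2F1 to E2F6 bind DNA together with a DP protein. TFDP1, which encodes the DP partner found in most cells, had 127 and 157 CPM in the core and 240 and 256 CPM in the invasion zone. The log2 fold change was 0.80 with a standard error of 0.16 (edgeR adjusted p = 0.128, and 0.000171 with the block). TFDP2 went slightly the other way, with 55.3 and 55.8 CPM against 49.8 and 49.7 CPM (edgeR adjusted p = 0.219 with the block), and TFDP3 was too low to test, with 3, 0, 9 and 1 counts. The remaining pocket protein, RBL2 or p130, holds E2F4 on silent promoters in resting cells and was the counterpart of RBL1. RBL2 had 128 and 110 CPM in the core and 86.9 and 79.0 CPM in the invasion zone, without overlap. Its log2 fold change was -0.52 with a standard error of 0.15 (edgeR adjusted p = 0.15, and 0.00141 with the block). Of its 8110 exonic bases, 1330 overlap opposite-strand genes. There were 0.25 and 0.36 counts of RBL1 for each count of RBL2 in the core and 0.64 and 0.95 in the invasion zone.

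Cyclin D with CDK4 or CDK6, and cyclin E with CDK2, release E2Fs from pocket proteins. Of 8 G1 cyclin and kinase genes, 6 were higher with the block at an adjusted p under 0.05 and 0 lower, against 19.4% of all genes in each direction, and the median log2 fold change was 0.66. CCNE2, a cyclin E that is itself an E2F target, had 9.21 and 16.2 CPM in the core and 28.9 and 34.7 CPM in the invasion zone (edgeR adjusted p = 0.131, and 0.000264 with the block). Its kinase CDK2 had a log2 fold change of 0.97 (edgeR adjusted p = 0.131, and 0.000236 with the block). Of the D-type cyclins, CCND1 passed with the block (log2 fold change 0.47, edgeR adjusted p = 0.155, and 0.00102 with the block). CCND3 (0.21) and CCND2 (-0.66) did not pass (edgeR adjusted p = 0.0732 and 0.247 with the block), and CCND2 was scarce, with 20 to 63 counts. CDK6 (0.85), CCNE1 (0.87) and CDK4 (0.33) completed the 6, and these and CCND1 were named after their values were seen.

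Of 7 genes for inhibitors of these kinases, 4 fell with the block, against 19.4% of all genes lower, and the other 3, CDKN1A, CDKN2C and CDKN2D, overlapped between the zones and did not pass. The median log2 fold change of the 7 was -0.31. CDKN2B, which encodes p15 and blocks CDK4 and CDK6, had 40.8 and 41.7 CPM in the core and 17.5 and 10.2 CPM in the invasion zone, with a log2 fold change of -1.56 with a standard error of 0.28 (edgeR adjusted p = 0.128, and 0.000286 with the block). CDKN1C, which encodes p57, was low, with 86 and 27 counts in the core and 39 and 1 in the invasion zone (log2 fold change -1.68, edgeR adjusted p = 0.279, and 0.0295 with the block). CDKN1B, which encodes p27, and CDKN2A, which encodes p16 and ARF, completed the 4 and were named after their values were seen, with log2 fold changes of -0.97 and -0.31. CDKN1A, the p53 target p21, had 29.5 and 33.3 CPM against 25.7 and 36.8 CPM, lower in the invasion zone in replicate 1 and higher in replicate 2. Its log2 fold change of -0.01 is smaller than the difference between scaling methods, which put the median of all genes between -0.04 and 0.00. CDKN2D, which encodes p19, had a log2 fold change of -0.06.

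Downstream, 30 genes long known as E2F targets and not among the members were read from the same fits. Without the block edgeR called 0 of 30 and limma voom 0, while DESeq2 called 22 of 30, beside 902 of all 15529 genes. At an unadjusted p under 0.05 in edgeR, 28 of 30 were higher, against 11.9% of all genes. With the block 29 of 30 had an adjusted p under 0.05 and were higher, 23 of them by at least 2-fold, beside 19.4% and 3.41% of all genes. Their median log2 fold change was 1.14, beside -0.01 for all genes. The zones were separate, with the invasion zone higher, for 29 of 30, against 28.1% of all genes. CDC45, part of the replicative helicase, had the largest change, from 8.34 and 17.4 CPM in the core to 35.1 and 46.1 CPM in the invasion zone, which is 1.67 as log2 fold change. MYBL2, a transcription factor of G2 genes, followed with 1.58. POLA1, the catalytic subunit of DNA polymerase alpha, had the smallest, 0.52. The list holds genes that the study picked from these libraries, CDC45 and MYBL2 among them. Of the 26 target genes with a promoter window, 16 held an 8-base E2F word in any of their windows. This count is per gene, whereas the 3.31% given for all promoters is per window.

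**Figure D5:**
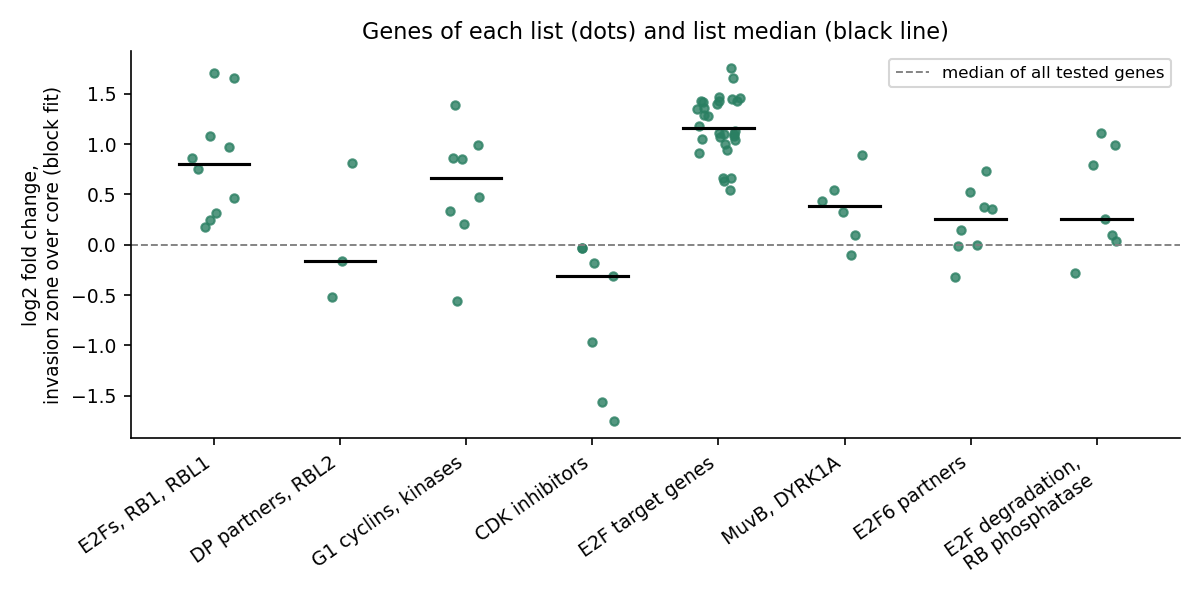
Log2 fold change, invasion zone over core, in the edgeR fit with the replicate block, for the tested genes of the lists shown (dots). Black lines are list medians and the dashed line is the median of all tested genes. The germline genes and the cell type markers are not drawn. Of the lists shown, targets of E2F have the highest median, CDK inhibitors lie at or below 0, and the members spread from 0.18 to 1.70.

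Other partners of the E2F system were read in the same way, and edgeR without the block called 0 of them, as it did for the cyclins, kinases and inhibitors. Of 5 MuvB subunit genes and the kinase DYRK1A, which assembles the complex with RBL2 and E2F4, 3 rose with the block, against 19.4% of all genes here and for the lists that follow. These were LIN9 (log2 fold change 0.86), LIN52 (0.54) and LIN54 (0.43, named after its value was seen), while RBBP4 (-0.10) and DYRK1A (0.11) did not pass. Of 8 genes for proteins found with E2F6 in a Polycomb complex, 4 rose with the block, and the outer values were PCGF6 (0.73) and YAF2 (0.52) at one end and RYBP (-0.32) and MGA (-0.02) at the other. Of 5 germline genes silenced through E2F6, 4 were too low to test and STAG3 had 23 and 11 counts in the core and 11 and 1 in the invasion zone (edgeR adjusted p = 0.0848 with the block). Of 7 genes for proteins that promote or hinder E2F degradation or dephosphorylate RB, 4 rose with the block. The count therefore gives no direction for degradation. FBXO5, an inhibitor of the anaphase-promoting complex and an E2F target, had a log2 fold change of 1.07 and CCNF, which targets E2Fs for degradation, 0.94. FZR1 (-0.29) and PPP1CB (0.03) did not pass.

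The genes whose log2 CPM profile over the 4 libraries lay nearest to that of a member, by Euclidean distance after centring each gene on its mean, were CDC25C (0.09), SKA3 (0.10) and ZWINT (0.14) for E2F1. For E2F2 they were CEP55 (0.22), IQGAP3 (0.22) and KIF4A (0.23), and for E2F8 they were MCM2 (0.03), CCNF (0.06) and an unnamed transcript (0.07). E2F7 lay nearest to WDR77 (0.04), DHX33 (0.06) and KIF18A (0.07), E2F3 to BAG2 (0.01), ACTR3B (0.01) and NDUFAF4 (0.04), and RBL1 to ITPA (0.01), RNASEH1-AS1 (0.04) and COQ3 (0.04). E2F4 lay nearest to PARP2, VKORC1L1 and MRPS2 (0.03 each), RB1 to MCRS1, AIFM1 (0.02 each) and DHX30 (0.02), E2F5 to DEAF1, HSPH1 (0.03 each) and PMPCA (0.04), and E2F6 to RP11-517H2.6, RHOC and SLC38A6 (0.02 each). Over only 4 libraries many genes are close to any profile. Within the family the nearest pairs were E2F5 and E2F6 (0.16) and E2F7 and RBL1 (0.17), and the nearest member to E2F1 was E2F2 (0.58).

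The cell identity was checked with fixed markers. The melanocyte genes SOX10 and TYR had 0 counts in all libraries, DCT had 1 count in total, MITF stayed at 1.71 to 3.36 CPM, and MLANA and PMEL at no more than 1.01 CPM. Of 5 genes linked to dedifferentiated melanoma, NGFR had at most 2 counts per library, SOX9 and EGFR lay between 123 and 207 CPM, and VIM between 1694 and 2436 CPM. SOX9 and VIM overlapped between the zones. EGFR was higher in the invasion zone without overlap (log2 fold change 0.30, edgeR adjusted p = 0.412, and 0.0357 with the block). The remaining one, AXL, a receptor tyrosine kinase, differed more between the zones. AXL had 632 and 628 CPM in the core and 1222 and 1120 CPM in the invasion zone (log2 fold change 0.89, edgeR adjusted p = 0.128, and 8.51e-05 with the block). The part of EGFR and AXL in the members' results was not tested. The leukocyte markers PTPRC, CD3E and CD68 had at most 7 counts per library. Of 3 epithelial markers EPCAM and CDH1 had at most 2 counts, while the keratin gene KRT18 had 118 to 158 CPM and overlapped between the zones. Of 3 endothelial markers, VWF and CDH5 had at most 16 counts and PECAM1 had 18.1 and 7.42 CPM in the core and 5.22 and 0.92 CPM in the invasion zone. PECAM1 was thus lower in the invasion zone, with a log2 fold change of -1.96 (edgeR adjusted p = 0.208). With the block it was -2.09 (edgeR adjusted p = 0.000461). The 10 most abundant genes took 4.25% to 5.58% of counts and mitochondrial genes 1.06% to 1.72%. In each replicate both were lower in the invasion zone, and their part in the results was not tested.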

How the data were processed

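RNA from the core and the invasion zone was made into cDNA with a SMARTer low input kit, sheared and sequenced. The authors removed ribosomal reads with Bowtie, kept reads above a quality minimum, aligned them to hg38 with STAR and deposited raw counts of uniquely mapped reads per gene from HTSeq-count. The sources used here give no tool version, annotation release or strand setting. In the paper, the authors tested with DESeq2 at a 2-fold change and a p-value under 0.05, and they do not say whether it was adjusted.

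Of 56306 rows, 2 repeated rows without counts were left out. In R 4.3.3, edgeR 4.0.16 (filterByExpr at 10 counts at the median library size in 2 libraries and 15 in total, TMM, quasi-likelihood test, Benjamini-Hochberg over 15529 genes) compared the zones without a replicate term. The study names a pair-wise test and states no such term. Standard errors are the log2 fold change over the root of F. DESeq2 1.42.0 and limma 3.58.1 were alternatives. The dissection protocol takes a core and then its corresponding invasion zone, and column names number both libraries of a replicate consecutively, which was read as pairing, although no source states that the number marks 1 spheroid. Deviations from the zone mean correlated between the libraries of a number (0.64 across genes). With 2 libraries per zone, both numbers give the same value, so they are not separate checks. The correlation cannot tell a shared spheroid from anything else that the libraries of a number have in common. The block fit has 1 residual degree of freedom before moderation. As no source names separate cultures, p-values measure only the spread between these libraries. Replicates were not duplicates (chi-square per degree of freedom of 33.8 and 31.9).

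Gene positions, exon lengths and overlaps came from GENCODE release 44 on GRCh38, the build of the counts, which held 99.1% of the tested identifiers. Promoters came from RefSeq. Profiles used log2 of CPM plus 0.5. The procedure was run on simulated counts with planted changes larger than those of any member in the fits with and without the block. This run does not show how the fits perform at the members' changes. The members, the lists and the named-gene rule (all members, every gene of a list of up to 4, the 2 highest and 2 lowest of each other list, and 3 nearest profiles per member) were chosen with earlier results of these data known. A gene that this rule names among the target genes is not reported here. Figures were drawn with matplotlib 3.10.9.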

Additional observations from a re-analysis of the deposited data

How the results depend on the processing

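The alternatives were RLE and upper-quartile scaling, other count filters, DESeq2, limma voom, unadjusted p, no fold minimum, a replicate block, thinning to the smallest library and each library left out. DESeq2 and limma voom with the block, and the block without a fold minimum, were chosen after seeing the data. All 10 members kept their direction in all 14 refits. These refits reuse the same 4 libraries, and leaving out 1 could hardly have reversed the 8 members whose zones did not overlap. Without the block, 0 genes, 0 members and 0 target genes were called, and this stayed so with RLE, upper-quartile scaling, 10 counts in every library, limma voom, no fold minimum and thinning. Counts of all, higher and lower genes, then members and target genes, were 1273, 427, 846, 3 and 22 without a low-count filter, 902, 354, 548, 1 and 22 with DESeq2, 1284, 444, 840, 3 and 23 with DESeq2 at an unadjusted p, and 1363, 454, 909, 2 and 22 in edgeR at an unadjusted p. With the replicate block, which pairs same-numbered libraries, they were 1627, 530, 1097, 3 and 23, without a fold minimum 6019, 3010, 3009, 8 and 29, in DESeq2 with the block 1158, 427, 731, 3 and 24, and in limma voom with the block 1663, 575, 1088, 3 and 24. The cause was not tested. Leaving out 1 library at a time gave 138 to 1713, 13 to 632, 125 to 1137, 0 to 5 and 0 to 25, taking the lone library of a zone to vary as much as the pair in the other. With 1 library left out, the log2 fold change ranged from 1.24 to 2.24 for E2F1, 0.74 to 2.56 for E2F2 and 0.61 to 1.51 for E2F8. For these members it was lowest without core replicate 1 and highest without core replicate 2. The range was 0.84 to 1.10 for E2F7, 0.64 to 1.07 for RBL1, 0.03 to 0.33 for E2F5 and 0.06 to 0.45 for E2F6. Counted per gene over all its windows, an E2F word was found in 4 of 7 members at 8 bases and in 6 of 7 at 7 bases. Depth limits E2F2 and E2F8, which had under 200 counts in 3 of 4 libraries each.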
